A study of Mus musculus with 18 samples.

Results

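Pcgf-6KO embryonic stem cells, labelled as lacking Pcgf1, Pcgf2, Pcgf3, Pcgf4, Pcgf5 and Pcgf6, were compared with Ring1b-KO cells, labelled as lacking Ring1b, across the transcriptome. The comparison used 6 of the 18 libraries of the series, 3 for each genotype, taken by the genotype label. Of 56551 genes in the deposited table, the 17842 with at least 1 TPM in at least 3 of the 18 libraries were tested. TPM is the share of a library's transcripts that belongs to a gene, corrected for gene length and scaled to the same total in every library. The other groups were WT, Ring1a-KO, Ring1a/b-dKO (both Ring1 genes) and Pcgf-4KO (Pcgf1, Pcgf3, Pcgf5 and Pcgf6), each with 3 libraries. All were mouse embryonic stem cells, harvested with trypsin. The labels name no parental line, sex, clone, culture medium or day, and do not say which part of a gene was removed. Nor do they say if separate cultures stand behind the 3 libraries of each genotype. The p-values here therefore set a difference only against the spread between libraries, which may be technical. For single genes this spread is pooled over all 18 libraries.

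Polycomb repressive complex 1 (PRC1) places ubiquitin on histone H2A and holds developmental genes silent. Every PRC1 complex pairs a RING protein, Ring1a (gene Ring1) or Ring1b (gene Rnf2), with a Pcgf protein that sets which other subunits join. Pcgf2 and Pcgf4 (gene Bmi1) form the canonical complexes with Cbx and Phc proteins, which read the mark of PRC2, and the other Pcgf proteins form the variant complexes with Rybp or Yaf2. Cells without Ring1b still have Ring1a, whereas loss of all Pcgf proteins removes the partner of both. In embryonic stem cells PRC1 is known for keeping the Hox clusters and lineage regulators off while the pluripotency network is on.

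Sequencing depth cannot be read from TPM and is unknown, and no counting interval can be given. Libraries of the same group lay 0.458 apart in Pcgf-6KO and 0.455 apart in Ring1b-KO (mean root mean square difference of log2(TPM + 1) over pairs). Pairs of a Pcgf-6KO and a Ring1b-KO library lay 1.009 apart, from 0.981 to 1.048. WT lay 0.799 from Ring1b-KO and 1.2 from Pcgf-6KO, and Ring1a/b-dKO lay 0.815 from Ring1b-KO and 0.81 from Pcgf-6KO. The Pcgf-6KO libraries were graded: replicate 2 lay between the other two in 56.6% of genes, against 29.9% to 39.3% for any library of the other groups, and replicate 3 was above replicate 1 by a median of 0.138. The median SD of a gene was 0.151 in Pcgf-6KO, 0.096 in Ring1b-KO and 0.087 in WT (log2 scale).

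The genes named in the labels came first. Pcgf6 stood at 11, 11.15 and 9.73 TPM in the 3 Pcgf-6KO libraries, at 52.99, 51.96 and 54.81 in Ring1b-KO and at 52.94, 52.80 and 53.30 in WT. Pcgf2 was at 17.91, 15.38 and 17.03 TPM in Pcgf-6KO against 52.86, 52.84 and 55.27 in Ring1b-KO, and Pcgf1 at 2.16, 4.28 and 2.66 against 16.16, 15.56 and 14.19. These 3 genes were lower in Pcgf-6KO, with log2 differences of -2.22 ± 0.06 for Pcgf6, -2.05 ± 0.27 for Pcgf1 and -1.62 ± 0.07 for Pcgf2 (limma estimate ± SE). Pcgf3 was also lower than in Ring1b-KO (-0.48 ± 0.11), at 10.16, 11.95 and 15.09 TPM against 17.13, 19.44 and 16.10. In WT it was at 13.36, 12.67 and 13.46 TPM. Against WT, Pcgf3 was not called in Pcgf-6KO (-0.10) and was higher in Ring1b-KO (0.39). Pcgf5 and Bmi1 did not have less RNA where they are labelled as knocked out. Pcgf5 was at 22.1 ± 1.11 TPM in Pcgf-6KO and 21.2 ± 1.70 in Ring1b-KO (mean ± SD, n = 3), against 9.53, 10.12 and 9.01 in WT. Bmi1 was at 14.34, 16.12 and 16.32 TPM in Pcgf-6KO and 11.04, 9.60 and 9.32 in Ring1b-KO, both above the 1.43, 0.88 and 2.50 of WT, and the log2 difference of 0.60 between the knockouts lost its call under median ratio scaling (0.41) and quantile normalization (0.35). Rnf2 was at 47.79, 52.98 and 47.35 TPM in Ring1b-KO, 75.83, 79.92 and 81.22 in Pcgf-6KO and 76.40, 71.45 and 65.92 in WT. The Rnf2 difference between the knockouts was 0.67 ± 0.08 (limma adjusted p = 2.53e-06), and no library of the groups overlapped. Ring1, the remaining RING gene in Ring1b-KO, was at 10.2 ± 1.84 and 9.87 ± 1.78 TPM and was not called. Pcgf6 was at 0.06 ± 0.05 TPM in Pcgf-4KO, also labelled as lacking it, against 10.6 ± 0.78 in Pcgf-6KO. Gene-level TPM counts whatever transcript an allele still makes, so these values check the labels only in part. For Pcgf3, Pcgf5, Bmi1 and Rnf2 they do so least, and the group names below are the labels.

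In Pcgf-6KO the keratins of simple epithelia, Hand1 and other trophoblast and epithelial genes, p53 targets and immediate early genes were higher than in Ring1b-KO, and pluripotency, cell cycle, cholesterol and glycolysis genes were lower. Of 17842 genes tested, 12113 differed (67.9%), 7522 higher in Pcgf-6KO (42.2%) and 4591 lower (25.7%). At least 2-fold, 2669 were higher (15.0%) and 1044 lower (5.85%). A gene was called at a limma adjusted p under 0.05, on log2(TPM + 1), which understates the change of genes at a few TPM. The balance of directions depended on scaling. The median gene was 0.15 higher in Pcgf-6KO on the deposited TPM, at -0.006 after median ratio scaling and at -0.058 after quantile normalization, and the higher share of the called genes went from 62.1% to 50.4% and 46.7%. List medians below stand against the 0.15 of all genes, and list counts against the 42.2% called higher and 25.7% called lower. A count near these shares says nothing particular about a list. In bulk RNA, fewer cells of a type and less RNA per cell cannot be told apart, which applies to every marker gene below.

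**Figure D1:**
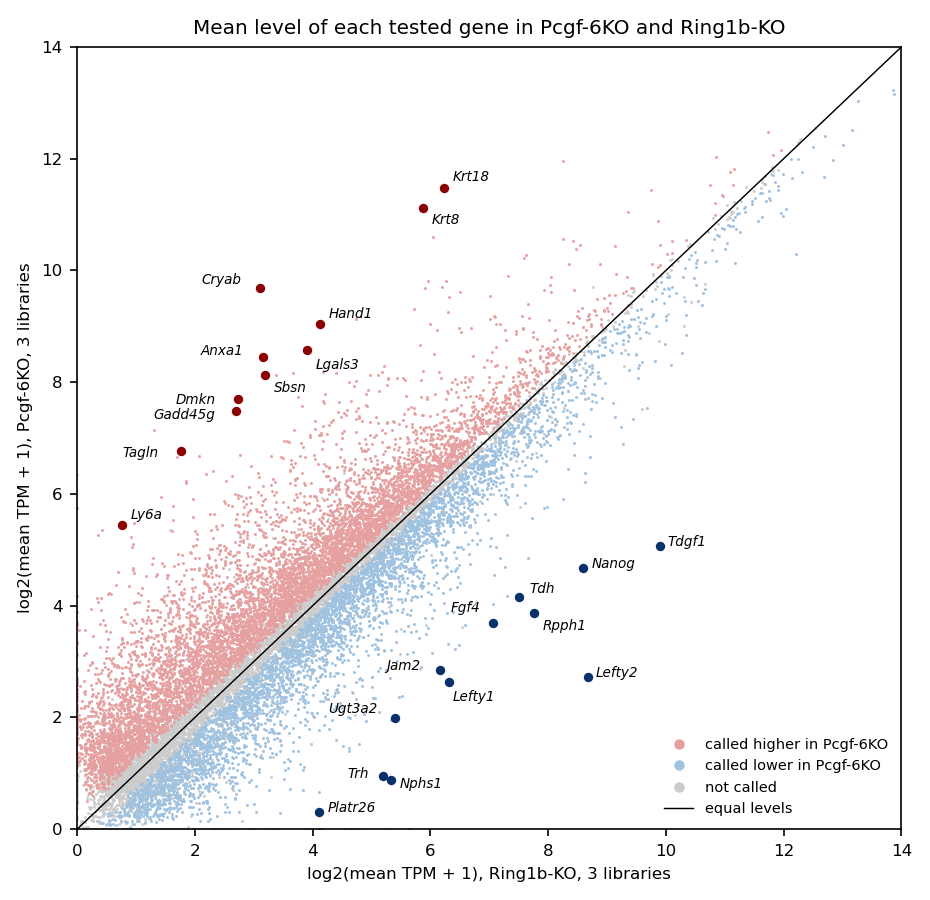
Mean level of each of the 17842 tested genes in Ring1b-KO (x axis) and Pcgf-6KO (y axis), both as log2(mean TPM + 1) over 3 libraries; red and blue points are the 7522 genes called higher and the 4591 called lower in Pcgf-6KO, grey points were not called, and the line marks equal levels. The labelled genes are 11 of the 12 largest rises and the 12 largest falls; the rises reach further from the line (Cryab, 6.58 on the log2 scale) than the falls (Lefty2, -5.96).

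The largest rise was that of Cryab, a small heat shock protein of the crystallin family (GRCm38 chr9:50751325-50756636). Its level was 830.26, 833.36 and 803.71 TPM in Pcgf-6KO, 8.31, 7.22 and 7.33 in Ring1b-KO and 3.47, 3.21 and 2.99 in WT, a log2 difference between the knockouts of 6.58 ± 0.08 (limma adjusted p = 1.23e-17). Krt8 and Krt18 encode the paired intermediate filament proteins of simple epithelia and lie next to each other on chromosome 15. Both were among the largest rises. Krt8 read 2229.45, 2262.31 and 2191.61 TPM in Pcgf-6KO and 56.09, 57.38 and 59.79 in Ring1b-KO. Krt18 read 2920.55, 2849.81 and 2819.18 against 75.17, 73.74 and 74.65. Both differences were 5.25 on the log2 scale, and in WT the genes stood at 36.8 ± 1.14 and 35.9 ± 3.61 TPM. Krt8 and Krt18 have processed pseudogenes that could share reads, so their exact levels are uncertain.

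Hand1, a bHLH transcription factor of trophoblast giant cells and mesoderm, was at 506.20, 529.96 and 537.88 TPM in Pcgf-6KO, 15.88, 16.53 and 17.02 in Ring1b-KO and 2.33, 2.73 and 2.29 in WT. All 3 groups were separate, in that order. Anxa1, an annexin that binds membranes in a calcium-dependent way, stood at 358.83, 350.19 and 338.65 TPM against 7.59, 7.67 and 8.51. Its log2 difference was 5.30 between the knockouts and -0.02 between Ring1b-KO and WT. Tagln, an actin-binding protein of smooth muscle, was at 115.79, 107.39 and 100.95 TPM in Pcgf-6KO, 2.33, 2.00 and 2.84 in Ring1b-KO and 13.83, 19.13 and 16.24 in WT, so that WT lay between the knockouts. Gadd45g, a growth arrest and DNA damage gene, had the same order, with 186.82, 187.29 and 160.26 TPM, 4.80, 6.31 and 5.42, and 17.11, 14.35 and 17.59. Other large rises were those of the epidermal genes Dmkn (4.96) and Sbsn (4.95), Ly6a (4.69), which encodes the surface antigen Sca-1, and the galectin gene Lgals3 (4.68), each at 39.69 TPM or more in every Pcgf-6KO library and at 15.8 or less in every Ring1b-KO library.

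**Figure D2:**
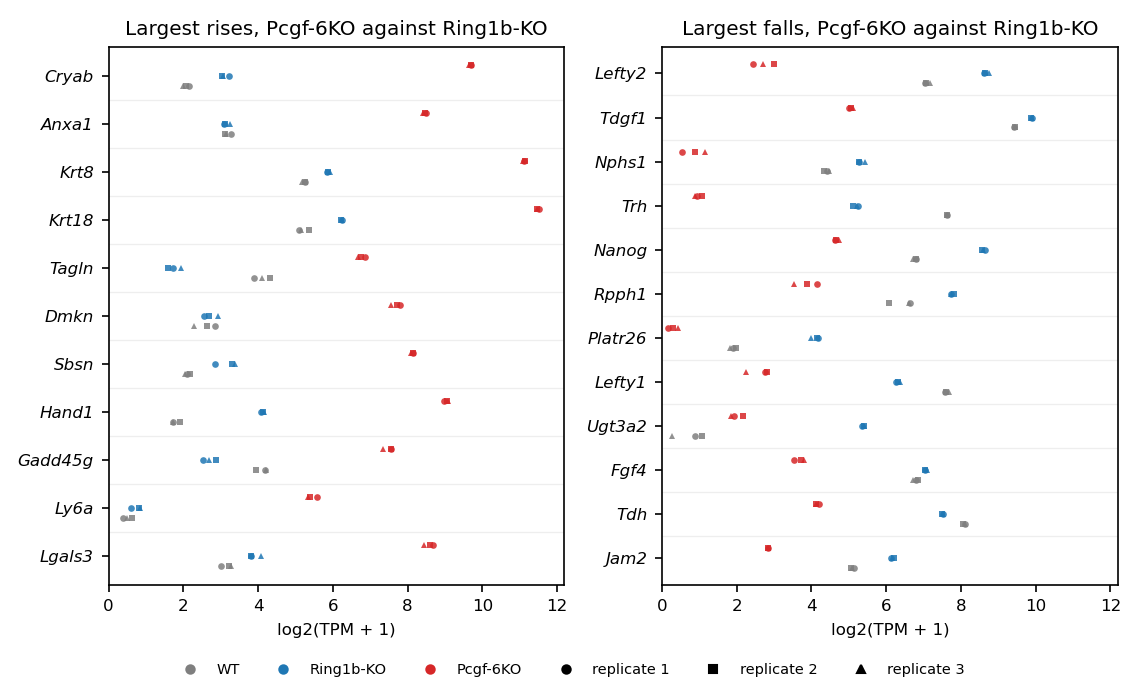
Level of 11 of the 12 genes with the largest rises (left) and the 12 with the largest falls (right) as log2(TPM + 1) in each library; red is Pcgf-6KO, blue Ring1b-KO, grey WT, and the marker shape gives the replicate. The red and blue points of each gene stand well apart while replicates cluster; WT lies between the knockouts for some genes, such as Tagln, Gadd45g, Nanog and Lefty2, and above Ring1b-KO for Trh, Lefty1 and Tdh.

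The 12 largest falls included Lefty1, Lefty2 and Tdgf1, which act on Nodal signalling, and the pluripotency genes Nanog and Fgf4, beside genes of other kinds. Lefty2, a secreted antagonist of Nodal (chr1:180893108-180899103), stood at 4.37, 7.01 and 5.46 TPM in Pcgf-6KO, 393.83, 399.17 and 427.65 in Ring1b-KO and 131.37, 133.43 and 141.96 in WT, a log2 difference between the knockouts of -5.96 ± 0.11 (limma adjusted p = 1.44e-15). Tdgf1, the Nodal co-receptor Cripto, was at 31.08, 32.56 and 33.85 TPM against 955.37, 943.94 and 950.07. Lefty1 was at 5.82, 6.02 and 3.78 against 75.61, 78.22 and 81.05. Lefty1 and Lefty2 are near-identical neighbours, so the split of reads between them is uncertain. Nanog, the homeodomain pluripotency factor (chr6:122707489-122714633), fell from 398.75, 379.08 and 382.21 TPM in Ring1b-KO to 23.71, 24.15 and 25.53 in Pcgf-6KO, with WT between them at 109.53, 110.34 and 103.91. Ring1b-KO thus held more Nanog and Lefty2 RNA than WT (log2 differences of 1.83 and 1.58) and Pcgf-6KO less (-2.1 and -4.39), 2 comparisons that share the WT libraries. Nanog was at 36.3 ± 1.86 TPM in Ring1a/b-dKO and 117 ± 2.1 in Pcgf-4KO.

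Fgf4, the growth factor that drives exit from the naive state, stood at 10.66, 12.16 and 12.94 TPM in Pcgf-6KO against 131.28, 130.29 and 134.50. Tdh, the threonine dehydrogenase on which mouse embryonic stem cells depend, was at 17.31, 16.41 and 16.41 against 181.68, 180.26 and 181.25. Trh, the thyrotropin-releasing hormone gene, was at 0.90, 1.09 and 0.84 TPM against 37.02, 33.80 and 36.12, and at 196.15, 194.95 and 195.55 in WT. WT was instead the lowest group for the glycosyltransferase gene Ugt3a2, which was at 2.8, 3.53 and 2.63 TPM in Pcgf-6KO, 40.04, 41.07 and 41.80 in Ring1b-KO and 0.85, 1.09 and 0.20 in WT. Nphs1 (nephrin, -4.47), the long noncoding RNA Platr26 (-3.81) and the junction adhesion gene Jam2 (-3.33) completed the group with Rpph1, the RNA of ribonuclease P. Rpph1 read 16.58, 13.69 and 10.50 TPM against 212.70, 224.31 and 212.69, with SDs of 3.04 and 6.71. Its SE of 0.85 was the widest of the 24 genes, but the SE pools the spread of all groups. Rpph1 was at 140 ± 121 TPM in Ring1a-KO and 31.5 ± 18.9 in Pcgf-4KO (mean ± SD). Small RNA genes together took 0.382%, 0.343% and 0.329% of TPM in Pcgf-6KO and 0.398%, 0.666% and 0.422% in Ring1b-KO, and their part in the Rpph1 value was not tested.

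**Figure D3:**
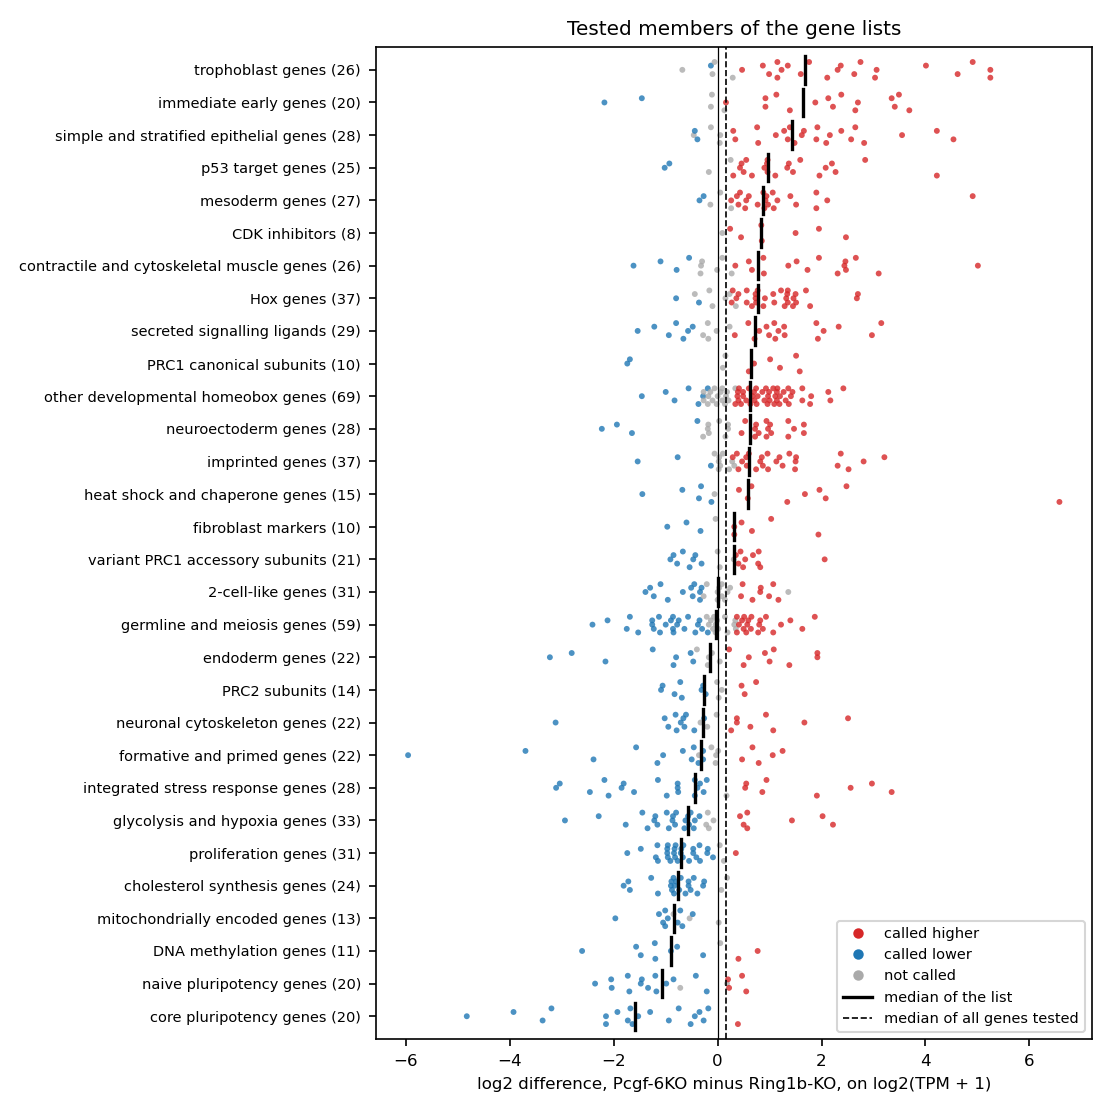
Log2 difference (Pcgf-6KO minus Ring1b-KO, on log2(TPM + 1)) of every tested member of the 30 gene lists, with the number of tested members in parentheses; red points were called higher, blue points lower, grey points were not called, thick bars are list medians and the dashed line is the median of all genes tested (0.15). Trophoblast genes (median 1.68) stand at the top and core pluripotency genes (-1.59) at the bottom.

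Subunits of PRC1 that were not targeted split by paralog. Of 10 canonical subunits, 6 were higher in Pcgf-6KO, 2 lower and 2 not called (median 0.65). Cbx8, a chromodomain subunit that binds the PRC2 mark, was at 22.79, 20.37 and 22.40 TPM in Pcgf-6KO, 6.99, 5.65 and 7.31 in Ring1b-KO and 0.18, 0.33 and 0.24 in WT. The polyhomeotic gene Phc2 (1.2) was higher too. Phc1, the polyhomeotic subunit of stem cells, went the other way, with 29.86, 34.57 and 40.86 TPM in Pcgf-6KO, 111.72, 115.76 and 115.19 in Ring1b-KO and 288.67, 280.51 and 290.42 in WT. Scml2 was also lower (-1.74), at 1.53, 1.70 and 1.71 against 6.23, 9.11 and 8.38 TPM. The variant complexes' accessory genes were mixed, with 10 of 21 higher, 8 lower and 3 not called (median 0.31, and 0.04 after quantile normalization). The share higher was not far from the 42.2% of all genes. The largest of these changes was in Bcor, the corepressor of the Pcgf1 complex, at 78.75, 96.25 and 115.99 TPM against 21.54, 22.45 and 22.48. Yaf2 (0.79) and Fbrs (0.82) were higher, and Wdr5 (-0.91), Csnk2a1 (-0.85) and the deacetylase gene Hdac1 (-0.78) lower. Of 14 PRC2 genes, 8 were lower, 3 higher and 3 not called (median -0.26). The falls were led by the accessory subunits Jarid2 (-1.09), Epop (-1.06) and Mtf2 (-0.83), and the rises were Rbbp7 (0.74), Phf1 (0.52) and Ezh1 (0.46).

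The Hox genes, which give body segments their identity, were low in both knockouts, at means of up to 16.29 TPM in Pcgf-6KO and 9.46 in Ring1b-KO, and mostly higher in Pcgf-6KO. Of 39 genes 37 were tested, and 29 of these were called higher, 2 lower and 6 not called (median 0.77). None of the 37 reached 1 TPM in WT and 24 did so in both knockouts. The others passed the filter through some of the knockout groups, so the count and the median are partly set by the filter and support nothing. In cluster order, the HoxA genes Hoxa2 (2.70), Hoxa3 (1.22), Hoxa4 (0.56), Hoxa5 (1.45), Hoxa7 (0.73) and Hoxa11 (1.51) were higher. Hoxa9 was lower (-0.80), at 3.17, 2.67 and 4.68 TPM against 6.09, 5.95 and 8.27, and Hoxa10 (-0.10) and Hoxa13 (0.35) were not called. In the HoxB cluster all but Hoxb13 (0.23, not called) were higher, from 0.73 for Hoxb7 to 2.68 for Hoxb9. Hoxb9 was at 16.07, 16.34 and 16.45 TPM in Pcgf-6KO, 1.61, 1.41 and 2.15 in Ring1b-KO and at most 0.11 in WT.

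In the HoxC cluster Hoxc4 was lower (-0.36) and the other 8 genes higher, from 0.27 for Hoxc8 to 1.35 for Hoxc10 and Hoxc11. The calls of Hoxc8 and Hoxc12 (0.36) were lost under median ratio scaling (0.18 and 0.19), quantile normalization (0.06 and 0.08) and over nuclear protein-coding genes alone (0.26 and 0.29). In the HoxD cluster Hoxd9 (0.56), Hoxd10 (1.46), Hoxd11 (0.91), Hoxd12 (0.40) and Hoxd13 (0.29) were higher, and Hoxd1 (-0.16), Hoxd4 (0.15) and Hoxd8 (-0.44) were not called. Hoxd8 was called lower under median ratio scaling (-0.58) and quantile normalization (-0.72), and under the latter Hoxd1 was called lower (-0.40) and Hoxd12 lost its call (0.21). Hoxd13 was among the highest Hox genes in both, at 10.96, 11.82 and 12.41 TPM in Pcgf-6KO and 8.49, 9.96 and 9.92 in Ring1b-KO, and its call was lost when any library other than Pcgf-6KO replicate 1 was left out and under both other scalings (0.11 and 0.03). Hoxa6 and Hoxd3 were not tested. With a pseudocount of 0.1 or 5 in place of 1, the Hox median was 1.22 or 0.39.

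**Figure D4:**
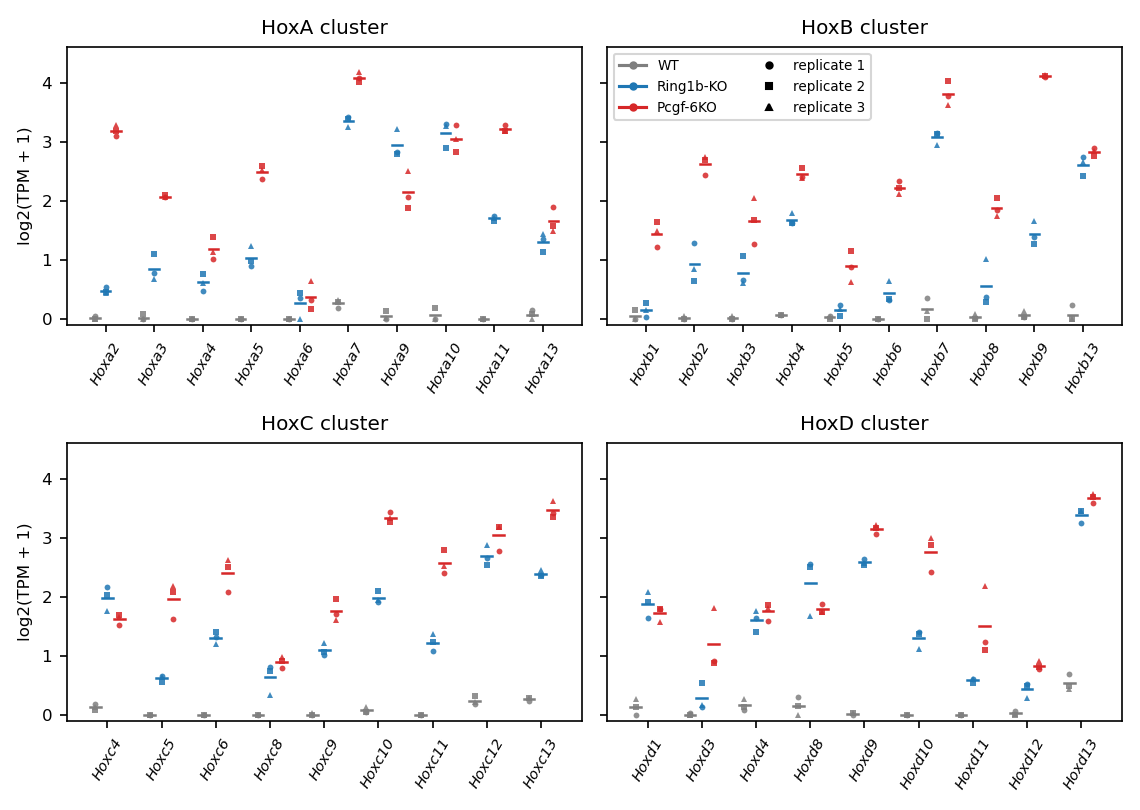
Level of 38 Hox genes in cluster order as log2(TPM + 1), with each library as a point (marker shape gives the replicate) and the group mean as a bar; red is Pcgf-6KO, blue Ring1b-KO, grey WT. Grey points lie near 0 throughout, red lies above blue for Hoxa2 and Hoxb9, and blue lies above red for Hoxa9.

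Outside the Hox clusters, 69 of 85 developmental homeobox genes were tested and 45 were higher, 7 lower and 17 not called (median 0.63, with 10 at 1 TPM or more in WT, so that the filter again enters). The leading rises were Msx2 (2.42), a BMP-responsive factor of ectoderm, Dlx2 (2.17), a forebrain and branchial arch factor, and Alx1 (2.13), a craniofacial factor. Msx2 stood at 16.80, 17.41 and 17.51 TPM against 2.05, 2.85 and 2.36. The falls were led by Gbx2 (-1.46), a naive-state and hindbrain gene at 45.45, 46.75 and 50.41 TPM in WT, followed by Meox1 (-1).

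Genes of the germ layers did not move alike. Several of these lists hold members that passed the filter through a group where they are high: 16 of 27 tested mesoderm genes, 18 of 28 neuroectoderm genes and 15 of 29 secreted ligands were at 1 TPM or more in both knockouts, so their counts and medians are descriptions that the filter partly sets. Of 27 mesoderm genes 22 were higher, 2 lower and 3 not called (median 0.88). Gata3 (2.11) and the forkhead gene Foxf1 (1.90) followed Hand1. Hand1 is also in the trophoblast list, and Hand1 and Gata3 are also trophoblast markers below, so these results overlap. Hand1, at a mean of 525 TPM in Pcgf-6KO, made up most of the mesoderm list's summed 646 to 706 TPM there. The lower Lmo2 (-0.35) lost its call under several alternatives. Under median ratio scaling and quantile normalization Lmo2 was called at -0.50 and -0.65. Of 28 neuroectoderm genes 16 were higher, 4 lower and 8 not called (median 0.62). Nes, the neural progenitor filament, stood at 26.95, 30.44 and 35.02 TPM against 8.88, 8.94 and 9.21, and the proneural gene Atoh1 (1.66) and Sox21 (1.47) were higher too. The oligodendrocyte factors Olig1 (-2.23) and Olig2 (-1.94) and the proneural gene Neurog1 (-1.65) were lower. Olig1 was at 4.08, 2.99 and 4.24 TPM in Pcgf-6KO, 20.92, 20.27 and 22.38 in Ring1b-KO and 52.14, 51.85 and 50.58 in WT.

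The 22 endoderm genes divided, with 9 higher, 8 lower and 5 not called. Their median was -0.14 although more members were higher than lower. The basement membrane genes separated within the list. Col4a1 (1.38) and Col4a2 (1.92), the collagen IV chains, and Sparc (1.92) were higher, and Lama1, the laminin chain of early basement membranes, was lower (-3.23), at 1.05, 1.65 and 2.22 TPM against 25.94, 23.27 and 21.15, with WT at 24.64, 26.77 and 24.97. Srgn (-2.81) and Cubn (-2.16) were high in Ring1b-KO but below 1 TPM in WT. The lineage factors Gata4 and Gata6 were close in the knockouts, at 12.90, 13.95 and 14.50 against 9.79, 8.88 and 9.73 TPM for Gata4 and at 7.53, 9.43 and 9.88 against 5.78, 5.53 and 5.30 for Gata6. Both differences were called (0.50 and 0.60).

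Trophoblast genes had the highest median of the 30 lists (1.68), with 21 of 26 tested members higher, 1 lower and 4 not called, and 25 at 1 TPM or more in both groups. The caudal factor Cdx2, which directs trophectoderm, stood at 8.35, 9.65 and 10 TPM in Pcgf-6KO, 0.81, 0.84 and 1.40 in Ring1b-KO and 0.06, 0.24 and 0.14 in WT. The imprinted Phlda2 was the lower member (-0.13). In the epithelial list 22 of 28 were higher, 2 lower and 4 not called (median 1.43). S100a6, a calcium-binding protein, stood at 1719.50, 1557.25 and 1354.36 TPM against 66.25, 59.76 and 69.41, Perp, a desmosome component, at 310.58, 313.23 and 318.31 against 16.44, 14.51 and 16.80, and the tight junction gene Cldn4 at 915.29, 911.21 and 874.68 against 73.77, 74.26 and 80.24. Epcam (-0.44), an epithelial adhesion molecule that stem cells also carry, and Krt17 (-0.39) were the lower members.

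The label of the cells was checked against markers. All 8 stem cell markers were at 1 TPM or more in both groups and all 8 were lower in Pcgf-6KO. Their summed level was 1755 to 2181 TPM against 7295 to 7940 in Ring1b-KO and 4209 to 4272 in WT. Dppa5a made up much of these sums, at means of 1257, 4761 and 1794 TPM in that order. Against WT, Ring1b-KO was lower for Pou5f1 (-0.13), Sox2 (-0.22) and Sall4 (-0.23), and higher for the other markers. The summed level of 6 trophoblast markers was 690 to 708 TPM against 32.4 to 33.5, with 5 of 6 higher. Hand1, among the largest rises above, made up most of the Pcgf-6KO sum, at a mean of 525 TPM against 16.5 in Ring1b-KO. Elf5 was the marker not called, at means of 1.57 against 1.11 TPM. The 6 extraembryonic endoderm markers summed to 34.2 to 41.2 against 31.0 to 33.2, with 3 higher and 1 lower. The 17 fibroblast markers summed to 96.9 to 107 against 71.4 to 79.2, with WT at 85.8 to 98.9. Vim made up much of these sums, at means of 50.6 TPM in Pcgf-6KO, 36.4 in Ring1b-KO and 67.2 in WT. Of the 10 fibroblast markers tested 6 were higher and 3 lower, and Lum and Fap were listed at 0 in every Ring1b-KO library. Blood markers summed to at most 1.71 TPM. The part of other cell types in the differences was not tested.

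Core pluripotency genes were nearly all lower in Pcgf-6KO, 19 of 20, with Dppa2 the exception (median -1.59). Pou5f1, the POU factor Oct4, stood at 427.40, 422.16 and 386.42 TPM against 1010.74, 989.18 and 1039.70, and at 1115.95, 1101.46 and 1119.67 in WT. Sox2, its partner, was at 45.92, 45.97 and 48.35 against 206.07, 205.13 and 222.73. Zfp42 (Rex1) was nearly level, at 65.41, 68.98 and 62.70 against 76.24, 72.01 and 75.64 TPM (-0.18, called). Dppa2 (0.39), a chromosome 16 gene, was at 146.24, 151.67 and 159.40 against 118.18, 115.39 and 113.77. Pou5f1 was at 592 ± 17.3 TPM in Ring1a/b-dKO and 621 ± 5.44 in Pcgf-4KO, and Pcgf-6KO was below both (log2 differences of -0.52 and -0.59).

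Among 20 naive-state genes 14 were lower, 4 higher and 2 not called (median -1.08). Klf4 read 9.70, 11.42 and 12.44 TPM in Pcgf-6KO, 61.18, 61.71 and 60.91 in Ring1b-KO and 15.68, 16.80 and 15.63 in WT. The T-box gene Tbx3 was above WT in both knockouts, at 14.97, 17.97 and 20.65 TPM in Pcgf-6KO and 61.47, 61.89 and 60.55 in Ring1b-KO, with WT at 5.37, 2.96 and 2.40. Prdm14 (-2.05), a repressor of methyltransferase genes, and Spp1 (-2.04) were among the larger falls, and Stat3, called higher at 0.22, was at -0.01 after quantile normalization. The formative list held 12 lower, 5 higher and 5 not called of 22 (median -0.32), with Tcf15 (-2.39) after the Lefty genes on the low side and Sall2 (1.25) and Sox4 (1.06) on the high side.

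Enzymes of DNA methylation and demethylation were mostly lower, 8 of 11, with 2 higher and 1 not called (median -0.90). Tet1, which oxidises 5-methylcytosine, stood at 13.50, 22.70 and 31.23 TPM in Pcgf-6KO against 130.50, 139.21 and 135.40, and WT was level with Ring1b-KO (140.29, 142.41 and 132.12). The Pcgf-6KO libraries were spread more than 2-fold at this gene. Dnmt3a (-1.57) and Tet2 (-1.48) were lower too. Dnmt3b was at 82.67, 102.23 and 115.78 TPM against 117.09, 123.32 and 121.01, both far below the 311.16, 317.09 and 302.74 of WT. Dnmt3l, the catalytically inactive cofactor, was higher in Pcgf-6KO (0.77), at 639.56, 619.09 and 595.03 against 356.49, 359.71 and 367.46.

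Germline and meiosis genes are a known group of variant PRC1 targets in stem cells: complexes with Pcgf6 hold the E-box binding proteins Mga and Max. Between the 2 knockouts 21 of 59 tested members were higher, 24 lower and 14 not called, with a median of -0.04 (-0.22 and -0.28 under the other scalings), although the levels of many were far above WT in both. Taf7l, a testis form of a general transcription factor subunit, stood at 108.63, 107.28 and 116.84 TPM in Pcgf-6KO, 27.87, 30.39 and 30.48 in Ring1b-KO and 0.94, 1.02 and 1.03 in WT. Tex101 (1.63) and the Tudor-domain gene Tdrd7 (1.40) also rose. Dazl, the RNA-binding protein of germ cells, had the opposite order, at 18, 19.40 and 20.38 TPM against 84.93, 86.97 and 88.97, with WT at 1.04, 1.28 and 0.94. The receptor gene Kit (-2.41) and Tdrd12 (-1.75) were lower. Mael, a piRNA pathway gene, was high in both, at 135.05, 125.10 and 127.97 TPM against 145.57, 138.49 and 139.37, with WT at 4.92, 4.63 and 4.39, and did not pass the test (-0.13, limma adjusted p = 0.0504), but was called lower under median ratio scaling (-0.32), quantile normalization (-0.28) and over nuclear protein-coding genes alone (-0.21).

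The letters CACGTG, the E-box that Mga and Max bind and which reads the same on both strands, were searched in RefSeq promoters (GRCm38.p6, 250 bases before to 50 after the start). They were in the promoters of 18 of 53 germline genes with an entry (34.0%), against 8.09% of 27025 genes in the table, 11.6% of the 11647 tested genes with an entry, and 7.15% of 32851 promoters. By direction they were in 10 of 20 germline genes higher in Pcgf-6KO, 4 of 19 lower and 4 of 11 not called, the others not having been tested. A match is a description of these letters and not a bound site. Promoters of 2 genes that rose, Taf7l and Tdrd1 (1.22, a Tudor-domain piRNA gene), and of 2 that fell, Pld6 (-1.23, the phospholipase of piRNA processing) and Piwil1 (-1.13, a PIWI protein), are shown because they hold the E-box in genes that moved in opposite directions; Tdrd1, Pld6 and Piwil1 were chosen after their values were seen. The E-box is in capitals.
Taf7l, chrX:134476441-134476740, minus strand: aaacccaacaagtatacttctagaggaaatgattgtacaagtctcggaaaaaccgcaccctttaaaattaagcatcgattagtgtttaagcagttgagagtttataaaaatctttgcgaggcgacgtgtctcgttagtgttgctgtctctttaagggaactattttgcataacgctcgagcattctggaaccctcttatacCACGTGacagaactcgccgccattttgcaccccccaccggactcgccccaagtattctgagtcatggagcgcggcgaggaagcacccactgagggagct
Tdrd1, chr19:56825959-56826258, plus strand: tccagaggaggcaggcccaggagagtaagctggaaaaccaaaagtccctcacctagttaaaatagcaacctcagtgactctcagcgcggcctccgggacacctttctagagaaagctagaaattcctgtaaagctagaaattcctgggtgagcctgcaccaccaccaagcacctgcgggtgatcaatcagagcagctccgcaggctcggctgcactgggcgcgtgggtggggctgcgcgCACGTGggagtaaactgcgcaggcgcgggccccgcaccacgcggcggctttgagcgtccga
Pld6, chr11:59787608-59787907, minus strand: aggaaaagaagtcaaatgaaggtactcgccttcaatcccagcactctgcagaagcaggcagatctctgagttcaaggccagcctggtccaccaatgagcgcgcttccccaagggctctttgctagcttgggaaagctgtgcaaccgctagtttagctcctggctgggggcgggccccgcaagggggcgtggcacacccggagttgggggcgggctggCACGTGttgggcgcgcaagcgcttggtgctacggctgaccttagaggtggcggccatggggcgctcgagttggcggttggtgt
Piwil1, chr5:128735996-128736295, plus strand: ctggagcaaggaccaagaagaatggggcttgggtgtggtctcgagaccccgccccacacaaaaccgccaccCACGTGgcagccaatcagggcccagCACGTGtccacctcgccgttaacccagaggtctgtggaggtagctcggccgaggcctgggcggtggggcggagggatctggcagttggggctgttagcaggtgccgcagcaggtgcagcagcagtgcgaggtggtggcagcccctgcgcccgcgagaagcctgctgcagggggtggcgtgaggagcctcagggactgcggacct

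Genes of the 2-cell-like state, a rare early embryo program in stem cell cultures, were at 1 TPM or more in both knockouts for 29 of 31 tested and in WT for 1. Of these 31, 8 were higher in Pcgf-6KO, 12 lower and 11 not called, and the median of 0.00 was -0.10 and -0.21 under the other scalings. Zscan4f read 13.29, 12.56 and 16.03 TPM against 19.85, 20.59 and 18.93, and Zscan4c 8.04, 10.72 and 9.42 against 12.54, 11.10 and 11.85. Both were listed at 0 in every WT library. The copies of the deubiquitinase family Usp17le (1.17), Usp17lb (1.07) and Usp17la (0.99) were higher, and Pramel7 (-1.39), Zscan4a (-1.30) and Pramel6 (-1.23) lower. These families consist of near-identical copies, and how reads were shared among them is uncertain.

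Cell cycle inhibitors and p53 targets were higher in Pcgf-6KO. Of 8 CDK inhibitors 7 were higher and none lower (median 0.84). Cdkn1a (p21) stood at 248.45, 263.06 and 272.54 TPM in Pcgf-6KO, 45.87, 45.16 and 48.07 in Ring1b-KO and 26.83, 26.38 and 25.78 in WT. Cdkn2a, a classical Polycomb target, was at 98.61, 91.92 and 83.23 against 52.87, 46.91 and 51.80 (0.84), and its neighbour Cdkn2b at 20.83, 21.15 and 19.47 against 4.41, 4.69 and 4.54. Of 25 p53 targets 21 were higher, 2 lower and 2 not called (median 0.96), among them the ubiquitin ligase gene Mdm2 at 437.08, 490.29 and 578.83 against 97.79, 105.25 and 104.75 TPM and the kinase gene Plk2 (2.84). Tigar (-1.02) and Sesn1 (-0.93) were lower. Proliferation genes moved the other way, with 28 of 31 lower, 1 higher and 2 not called (median -0.71). Mycn stood at 8.84, 9.23 and 8.94 TPM against 30.69, 32.14 and 34.62, and at 210.35, 209.70 and 213.06 in WT, and the mitotic cyclins Ccnb2 (-1.48) and Ccnb1 (-1.19) were lower. Myc was the higher member (0.35), a call lost under the other scalings (0.16 and 0.12).

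Immediate early genes, which growth factors and stress induce, were higher in 15 of 20, lower in 2 and not called in 3 (median 1.64). Jun read 75.74, 77.47 and 84.32 TPM in Pcgf-6KO, 5.17, 5.20 and 5.29 in Ring1b-KO and 3.59, 4.35 and 3.06 in WT. Fosl1 (3.49) and Klf6 (3.41) were next. The exceptions were feedback inhibitors of FGF signalling, Spry4, at 4.69, 5.09 and 6.17 against 27.30, 27.73 and 27.29 TPM, and Spry2 (-1.46). The heat shock list held 9 higher, 5 lower and 1 not called of 15 (median 0.58), with Hspa1a (2.48) and Hspa1b (2.08), near-identical genes whose reads may be shared, behind Cryab, and the mitochondrial chaperonin gene Hspd1 lower (-1.45). The integrated stress response list moved both ways, with 19 lower, 8 higher and 1 not called of 28 (median -0.44). The transcription factor genes Atf3 (3.35) and Ddit3 (2.97) and the phosphatase subunit gene Ppp1r15a (2.56) were higher. The amino acid transporter gene Slc7a3 (-3.11), Pck2, the mitochondrial phosphoenolpyruvate carboxykinase (-3.04), and the stress-induced regulator gene Nupr1 (-2.46) were lower, Slc7a3 at 4.59, 3.99 and 3.85 TPM against 42.32, 46.15 and 41.27.

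Metabolic genes were mostly lower in Pcgf-6KO. All 24 cholesterol synthesis genes were measured, and 22 were lower, none higher and 2 not called (median -0.77). Insig1, the sterol sensor, stood at 20.87, 24.54 and 25.13 TPM against 81.42, 85.44 and 86.96, and Idi1 (-1.72) and Dhcr7 (-1.69) followed. In the glycolysis and hypoxia list 22 of 33 were lower, 7 higher and 4 not called (median -0.57). Pfkp, a phosphofructokinase, was at 9.78, 12.17 and 12.91 TPM against 92.22, 100.30 and 92.81, and Pdk1 (-2.29) and Ldha (-1.77) were lower. The regulatory kinase gene Pfkfb3 (2.22), Ndrg1 (2.02) and the glucose transporter gene Slc2a1 (1.43) were higher. Of 13 mitochondrially encoded genes 10 were lower and 3 not called (median -0.85), with mt-Nd4l at 387.04, 126.14 and 436.38 TPM against 983.84, 1223.79 and 1066.98.

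Imprinted genes, expressed from the copy of 1 parent, were higher in 25 of 37, lower in 3 and not called in 9 (median 0.60). The neighbours Igf2 and H19 on chromosome 7 led. Igf2, a fetal growth factor, stood at 713.53, 737.82 and 751.94 TPM in Pcgf-6KO, 77.71, 77.30 and 80.93 in Ring1b-KO and 18.33, 18.78 and 20.01 in WT. H19, a noncoding RNA, stood at 461.37, 490.26 and 507.46 against 65.63, 67.91 and 71.58, with WT at 0.46, 0.26 and 0.14. In Ring1a/b-dKO the pair was unequal, with Igf2 at 543 ± 6.45 TPM and H19 at 4.75 ± 0.89. Airn (2.52), the antisense RNA of the Igf2r locus, was also higher, and Grb10 (-1.54) and Ddc (-0.77), which are neighbours on chromosome 11, were lower.

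The secreted ligands included 17 higher, 7 lower and 5 not called of 29 tested (median 0.71). Bmp1, a procollagen protease, stood at 49.24, 54.28 and 57.74 TPM against 4.93, 5.08 and 5.50 and Wnt7b at 38.46, 43.40 and 45.19 against 4.42, 4.41 and 4.74. Wnt10b (2.33) was higher and Fgf17 (-1.54), Fgf10 (-1.22) and Inhbb (-0.94) were lower. Contractile genes were higher in 16 of 26, lower in 4 and not called in 6 (median 0.77). The actin-binding gene Tpm1 was at 752.85, 770.29 and 816.69 TPM against 87.88, 89.84 and 91.64, and Acta2 (2.66) was below WT in Ring1b-KO, at 0.07, 0.20 and 0.13 TPM with WT at 2.29, 2.17 and 2.16. The atrial light chain genes Myl7 (-1.62) and Myl4 (-1.10) were lower. Genes of the neuronal cytoskeleton were lower in 11 of 22, higher in 8 and not called in 3 (median -0.29). Stmn2, a microtubule regulator, fell from 163.92, 153.77 and 152.91 TPM to 17.92, 16.07 and 17.39, while the neuronal filament genes Prph (2.51) and Nefm (1.67) were higher.

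Chromosome 16 stood furthest from the rest of the genome. The median log2 difference of its 494 tested genes was 0.62, 0.47 above that of all genes, and 69.2% of them were called higher against 42.2% of all genes. The other 19 chromosomes, X included, had medians from -0.09 (chromosome 6) to 0.30 (chromosome 19). Chromosome 6 lay furthest below all genes, at -0.24 from their median, with 29.0% of its genes called higher. Over WT it was the lowest chromosome in each Pcgf-6KO library (0.09, 0.14 and 0.21), against 0.17, 0.19 and 0.18 in Ring1b-KO. The falls of Nanog (-3.93), Trh (-4.24) and Phc1 (-1.69), genes of chromosome 6, were larger than the chromosome's own. Each Pcgf-6KO library was above the Ring1b-KO mean on chromosome 16, by 0.53, 0.60 and 0.71, and windows of 20 Mb along it had medians from 0.55 to 0.72. Against WT, the chromosome 16 medians were 0.47, 0.55 and 0.64 in the Pcgf-6KO libraries and -0.12, -0.08 and -0.11 in Ring1b-KO. The other groups were above WT there too, by 0.51, 0.53 and 0.52 in Pcgf-4KO, 0.51, 0.47 and 0.49 in Ring1a/b-dKO and 0.21, 0.12 and 0.21 in Ring1a-KO, and chromosome 16 was the highest chromosome in each of their libraries. Ring1b-KO was thus the 1 knockout without a raised chromosome 16, and the raised level was not particular to Pcgf-6KO. Taken relative to the median of chromosome 16, the differences of Jam2, Olig1 and Olig2 would be larger falls and that of Dppa2 smaller than the chromosome's own (0.39 against 0.62). Whether the copy number of chromosome 16 or chromosome 6 differed was not tested.

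**Figure D5:**
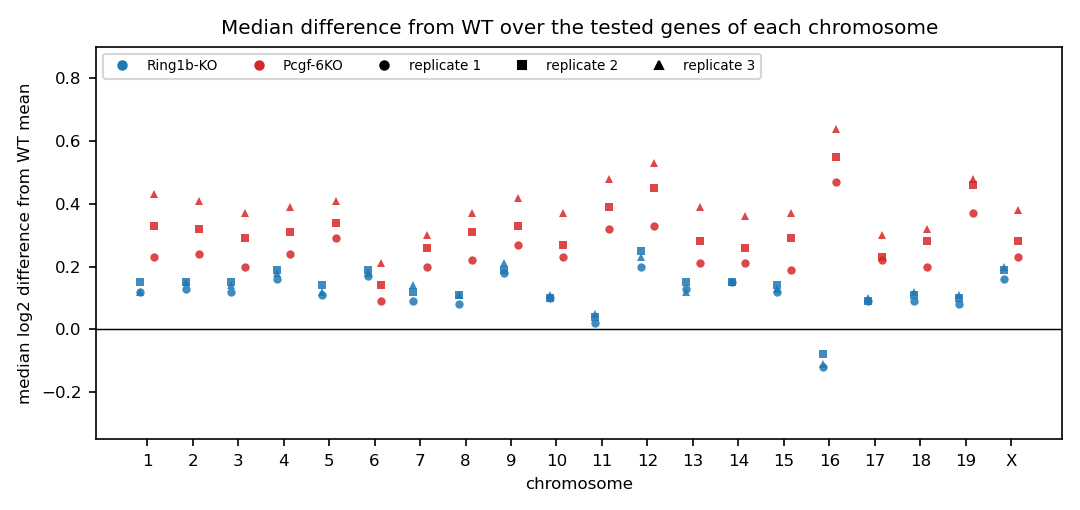
Median log2 difference from the WT mean over the tested genes of each chromosome (x axis), for each Ring1b-KO library (blue) and Pcgf-6KO library (red), with the marker shape giving the replicate. Chromosome 16 has the highest value of each Pcgf-6KO library (0.47, 0.55 and 0.64) and the only Ring1b-KO values below 0 (-0.12 to -0.08); replicate 3 of Pcgf-6KO lies above replicate 1 on every chromosome.

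The make-up of the libraries also differed. More genes were at 1 TPM or more in Pcgf-6KO (16236, 16331 and 16585) than in Ring1b-KO (15528, 15668 and 15652) and WT (14225, 14207 and 14208). Mitochondrially encoded genes took 4.02% ± 0.561 of TPM in Pcgf-6KO, 7.18% ± 0.2 in Ring1b-KO and 6.63% ± 0.25 in WT (mean ± SD, n = 3). Replication-dependent histone genes took 0.11% ± 0.00252 against 0.0274% ± 0.00148, with WT at 0.0243% ± 0.000693. Ribosomal protein genes took 17.1% ± 1.59 against 18.7% ± 0.435, with 1 Pcgf-6KO library within the range of Ring1b-KO. This difference of -1.581 percentage points was -0.7716 without Pcgf-6KO replicate 3 and -2.356 without replicate 1. As a share of nuclear protein-coding TPM the groups did not overlap, at 22.03%, 20.34% and 18.57% against 23.85%, 23.11% and 23.71% (exact permutation p = 0.1). The exact two-sided permutation test of 3 against 3 libraries gave p = 0.1 for the number of genes, the mitochondrial and the histone shares, the smallest p this design can reach, and p = 0.2 for the ribosomal share.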

How the data were processed

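RNA of 18 mouse embryonic stem cell libraries was extracted with Trizol and made into libraries with a TruSeq RNA kit, per the labels' protocols. The authors deposited TPM values per gene. Per the submitters' processing notes, the build was GRCm38.p5 and the tools included RSEM, edgeR and TopHat2 2.1.1. What each tool did, and from which annotation, is not given in the sources used here. The 6 columns of group means that the authors deposited, also in TPM, were not used. Of 56551 genes, 55227 matched a symbol in GENCODE M21 (GRCm38), and 927 of those tested had none. A value of exactly 0 is written as listed at 0, since 86 genes with a median of 5 TPM or more had a 0 in some library.

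Values were taken as log2(TPM + 1). Genes at 1 TPM in 3 of 18 libraries entered a limma 3.58.1 fit (R 4.3.3; 1 mean per group, 12 residual degrees of freedom, trend on the mean), which was tested on simulated data, with Benjamini-Hochberg adjustment over all genes and a call at an adjusted p under 0.05. Single shares were compared by exact permutation. The text names 5 kinds of gene: those targeted (8); among called genes with an established symbol, groups that do not overlap and at least 5 TPM in the higher one, the 12 that rose most and the 12 that fell most; from each list, at most 3 called in either direction; the Hox genes; and 23 chosen regulators. The comparison, the members and the 30 lists were chosen with earlier results of these data known, so list counts are descriptions and no list was tested. Alternatives were the pseudocount, the filter, the scaling, library weights, a replicate block, the 6 libraries alone and each library left out. A few genes that this choice names are not reported here; they stay in the counts and medians.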

Additional observations from a re-analysis of the deposited data

How the results depend on the processing

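The counts of genes called, higher and lower stayed within 1.5 times of those reported under every alternative run. The fit on the 6 libraries alone, with their own spread, called 10954 genes, 6885 higher and 4069 lower. With each library left out in turn, 11499 to 12018 genes were called, 7081 to 7760 higher and 4258 to 4804 lower, 2544 to 2825 at least 2-fold higher and 978 to 1128 at least 2-fold lower. The 2-fold counts followed the pseudocount, which sets how far low genes can move: 1317 higher and 454 lower with 5, and 1589 lower with 0.1. Quantile normalization gave 1767 at least 2-fold lower. Of the targeted genes 1 rather than 2 was higher under median ratio scaling and 1 under quantile normalization, where Bmi1 lost its call. The chromosome 16 median above that of all genes was 0.53 and 0.30 with pseudocounts of 0.1 and 5, 0.60 without the filter, and 0.45 under both median ratio scaling and library weights. Over nuclear protein-coding genes alone the ribosomal share differed by -3.243 percentage points and the histone share by 0.09647. Stat3 turned from 0.22 to -0.01 after quantile normalization, where the median of all genes went from 0.15 to -0.058. The cause of the Stat3 change was not tested. Some calls, among them Tnni3, Tet3, Lmo2, Phlda2, Hoxc4 and Zscan4c, were lost under several alternatives. The falls of Tnni3, Lmo2, Phlda2 and Hoxc4 stayed called and were larger under median ratio scaling and quantile normalization. The same held over nuclear protein-coding genes alone. The median of all genes was also lower under each of these settings. Library weights gave Pcgf-6KO replicate 2 a weight of 233, with the iteration stopped before it converged, and 14314 calls. Same-numbered libraries of the groups did not deviate together (correlations of 0, -0.014 and 0.017), so no shared shift by replicate number was seen. This cannot tell if same-numbered libraries were prepared together, which the labels do not say. The fit with the replicate number as a block called 12078 genes, 7500 higher and 4578 lower. TPM hides depth, so small differences of genes near 1 TPM cannot be weighed against counting error.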

Other observations

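Some gene families outside the lists, grouped by the start of their symbols and chosen after their values were seen, were uneven between Pcgf-6KO and Ring1b-KO. Of 10 tested annexin genes 9 were higher in Pcgf-6KO and 1 was not called (median log2 difference 1.73, against 0.15 for all genes). Anxa2 stood at a mean of 634.65 TPM against 51.57, with WT at 54.64, Anxa3 at 284.9 against 11.68, with WT at 7.86, and Anxa11 at 47.97 against 45.37. Of 62 histone genes with symbols starting in Hist, 52 were higher, none lower and 10 not called (median 1.40). Hist1h2bc stood at 179.29 TPM against 22.96 and Hist1h1c at 74.27 against 4.74. Dual-specificity phosphatase genes, which switch off MAP kinases, were higher in 15 of 22 and lower in 2 (median 0.94), with Dusp14 at 142.49 TPM against 15.36 and Dusp5 at 70.01 against 7.89, while Dusp6 was level at 28.44 against 25.93. Of 22 stem cell associated Platr noncoding RNAs 13 were lower, 3 higher and 6 not called (median -0.43), with Platr14 at 32.5 TPM against 128.31 and, the other way, Platr15 at 6.13 against 0.85.

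Among X-linked Rhox homeobox genes, 9 of 16 were higher, 1 lower and 6 not called (median 0.67). Rhox5 stood at 984.06 TPM in Pcgf-6KO, 570.8 in Ring1b-KO and 96.63 in WT, Rhox12 at 12.35, 0.35 and 0.07, and Rhox10, the lower member, at 3.38, 6.87 and 0.16. These genes lie in a tandem cluster with similar copies, so single values are uncertain.

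The Y-linked genes differed between the groups. Eif2s3y stood at 13.90, 12.44 and 15.16 TPM in Pcgf-6KO, 1.52, 2.01 and 2.40 in Ring1b-KO and 40.55, 43.62 and 41.38 in WT. Ddx3y was at 20.08, 20.25 and 25.91, 3.64, 3.61 and 3.79, and 18.05, 19.05 and 16.79. Uty was at 5.49, 7.43 and 10.28, 1.5, 1.22 and 0.92, and 7.21, 6.90 and 6.31. All 3 genes were at means of 0.09 TPM or less in Ring1a-KO, Ring1a/b-dKO and Pcgf-4KO, so low Y-linked levels were not particular to Ring1b-KO. Kdm5d and Uba1y, also at 0.08 TPM or less in those groups, differed less between the knockouts (0.53 and 0.41). Kdm5d was at means of 1.86 TPM in Pcgf-6KO, 0.98 in Ring1b-KO and 2.88 in WT, and Uba1y at 2.63, 1.70 and 2.99. The Uba1y difference was not called under quantile normalization (0.21). Whether all Ring1b-KO cells carried the Y chromosome was not tested.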
